A study of Mus musculus with 4 samples.

Results

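The atrogin1 and MuRF ligases are a set of 6 mouse genes that encode muscle ubiquitin ligases or their closest relatives. Fbxo32 (atrogin1, also MAFbx), Fbxo25 and Fbxo40 encode F-box proteins, and Trim63 (MuRF1), Trim55 (MuRF2) and Trim54 (MuRF3) encode RING finger proteins. Members were chosen by symbol, through the annotation of the array platform and current synonyms, and only probe sets annotated to a single gene were read. Of the 6 genes, 4 have such a probe set, with 3 for Fbxo32 and 1 each for Fbxo25, Trim63 and Trim54. All 6 probe sets passed the filter on dim signals, and the 4 genes stand among 12565 genes that did so. No probe set carries the name of Fbxo40 or Trim55 in that annotation, and both genes are not analysed here.

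The study asked how the loss of the FoxO transcription factors alters the response of skeletal muscle to fasting. Gastrocnemius muscle of adult male mice from a cross of C57BL/6N and FVBN was profiled in 4 conditions. Control mice carried floxed alleles of Foxo1, Foxo3 and Foxo4 (FoxO1,3,4 f/f, called wild type in the sample labels), and were either fed ad libitum or starved for 24 h with free access to water. Knockout mice (FoxO1,3,4-/-) carried the same floxed alleles together with a Cre recombinase under the Myosin light chain 1 fast promoter, and were fed or starved in the same way. By the study's account that promoter works in fast but not in slow fibres, so slow fibres keep their FoxO genes, as do vessel, connective tissue and immune cells of the knockout muscle. RNA of 6 muscles from 3 mice was pooled for each condition and hybridised to 1 array, which gives 4 arrays in all. There is thus no replicate, no spread between mice and no test, and precision is limited by how few arrays there are. In whole muscle, fewer cells of a type and less RNA per cell cannot be told apart.

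Ubiquitin ligases choose the proteins that are tagged with ubiquitin and then degraded by the proteasome. F-box proteins do so as the substrate adaptor of the SCF complex, in which Skp1 links them to the scaffold Cul1 and the RING protein Rbx1. MuRF proteins belong to the tripartite motif (TRIM) family, bind their E2 enzyme directly through the RING domain, and associate with titin and other proteins of the sarcomere. Fbxo32 and Trim63 are known as ligases that many forms of muscle wasting induce, and FoxO factors are known to act on both genes.

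The promoters of Trim63 and Trim54 are shown because these are the members with a promoter in the RefSeq table and a signal on the arrays, and because their signals behaved differently. The 250 bases before the annotated start are given 5′ to 3′ on the strand of the gene, from RefSeq on GRCm38.p6. The Trim63 stretch is chr4:134314870-134315119 and that of Trim54 is chr5:31116362-31116611, both on the plus strand. Capitals mark matches, on either strand, to the FoxO core motif GTAAACA and to the glucocorticoid receptor half-site AGAACA.
Trim63: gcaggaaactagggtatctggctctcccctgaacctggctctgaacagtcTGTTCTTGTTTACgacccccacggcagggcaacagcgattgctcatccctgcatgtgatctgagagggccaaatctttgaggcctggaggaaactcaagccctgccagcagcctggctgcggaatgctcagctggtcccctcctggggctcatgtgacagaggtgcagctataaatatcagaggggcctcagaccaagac
Trim54: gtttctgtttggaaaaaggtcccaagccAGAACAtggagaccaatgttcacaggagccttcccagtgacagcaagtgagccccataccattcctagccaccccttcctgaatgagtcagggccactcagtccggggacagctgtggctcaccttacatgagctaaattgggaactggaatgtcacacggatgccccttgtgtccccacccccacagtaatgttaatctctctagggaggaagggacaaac
In the Trim63 promoter, GTAAACA lies on the minus strand at -194 to -188 from the start. The half-site AGAACA lies on the same strand at -200 to -195 and directly adjoins it without overlap, so that both form 1 run of capitals. The Trim54 promoter holds AGAACA on the plus strand at -222 to -217 and no match to GTAAACA. Neither holds the insulin response motif CAAAACA. Of 32851 promoter windows of the same length, 3.17% hold GTAAACA, 16.1% hold AGAACA and 5.56% hold CAAAACA. The E-box CANNTG, read without capitals, has 3 matches in Trim63 and 2 in Trim54, and is in 66.2% of the windows. These matches describe letters in a window and say nothing of binding.

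Signals are linear intensities of the MAS 5.0 algorithm, an Affymetrix summary of the probes of a probe set. They are compared here within a probe set across arrays, and never between probe sets, since each probe set has its own response. The array medians were 26.3 (fed) and 26 (starved) in control and 23.8 (fed) and 22.9 (starved) in knockout muscle. A ratio of at least 1.5, or its inverse, was called a change. The median log2 ratio over all genes was -0.20 for fed knockout over fed control and -0.16 for starved knockout over starved control. For starved over fed it was -0.11 in control and -0.06 in knockout muscle. Ratios were called without subtraction of these medians, which are given beside them.

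The targeted genes differed in how clearly the arrays showed the deletion. Foxo4 had signals of 296.9 and 291.3 on the fed and starved control arrays, against 31.3 and 34.3 on the fed and starved knockout arrays. For Foxo1 the signals were 303.8 and 554.4 in control and 185.2 and 165.5 in knockout muscle. Foxo3 read 250.1 and 477.8 in control and 297.3 and 460.9 in knockout muscle, so the genotypes differed by less than 1.5-fold in either state. Whether the probe sets of Foxo1 and Foxo3 lie in the deleted part of the genes was not tested. The study itself reported the deletion by PCR of genomic DNA. It also reported lower Foxo1, Foxo3 and Foxo4 transcripts by RT-PCR in tibialis anterior, and less FoxO1 and FoxO3 protein by immunoblot in gastrocnemius. All 8 skeletal muscle markers were measured without a call in any ratio, and their summed signal ran from 111131 to 116873. Tnnt3 among them gave the highest signal of every array. Whether signals that high follow muscle content was not tested. Of 4 heart markers, 3 were at or below the array median on every array, and Myh6 read 22.5 to 28.2.

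Fbxo32, the adaptor that gives the SCF complex its best known role in muscle wasting, rose on starvation in both genotypes, and less in the knockout. Its brightest probe set read 2485.4 on the fed and 11326.4 on the starved control array. On the knockout arrays it read 1643.9 fed and 3735.5 starved. The starved control array was thus far above the other 3, and the fed knockout array was the lowest. Starvation raised the signal 4.56-fold in control muscle (log2 2.19) and 2.27-fold in knockout muscle (log2 1.18).

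The 2 dimmer probe sets of Fbxo32 ordered the 4 arrays in the same way. The second brightest read 1220.2 fed and 9131.9 starved in control muscle, and 731.2 fed and 2229.8 starved in knockout muscle. Its starved over fed ratio was 7.48 in control and 3.05 in knockout muscle. The dimmest read 578.9 fed and 1408.0 starved in control muscle, and 404.5 fed and 694.4 starved in knockout muscle. Its ratio was 2.43 in control and 1.72 in knockout muscle. The size of the rise in control muscle therefore ran from 2.43 to 7.48 with the probe set, while all 3 probe sets passed 1.5-fold in both genotypes.

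Trim63 encodes MuRF1, the ligase known for its action on thick filament proteins. Its single probe set read 4465.1 on the fed and 10852.6 on the starved control array. On the knockout arrays it read 3510.1 fed and 4759.1 starved. As for Fbxo32, the starved control array stood far above the other 3, while the starved knockout signal lay close to the fed control signal, at 1.07 times its value. The rise in control muscle was 2.43-fold (log2 1.28), and the knockout ratio of 1.36 (log2 0.44) stayed below 1.5.

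Trim54 encodes MuRF3, a microtubule-associated relative of MuRF1, and its signal was nearly the same in both genotypes. It read 2537.6 fed and 3624.0 starved in control muscle. In knockout muscle it read 2563.9 fed and 3648.9 starved. The 2 starved arrays were above the 2 fed arrays, with nearly equal ratios of 1.43 in control and 1.42 in knockout muscle, both just short of 1.5. Knockout over control was 1.01 in the fed and 1.01 in the starved state.

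Fbxo25 is the closest relative of Fbxo32 among F-box genes. It read 170.7 fed and 151.8 starved in control muscle. In knockout muscle it read 161.8 fed and 120.1 starved. The range over the 4 arrays was 1.42-fold and no ratio passed the threshold, with starved over fed at 0.889 in control and 0.742 in knockout muscle.

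**Figure D1:**
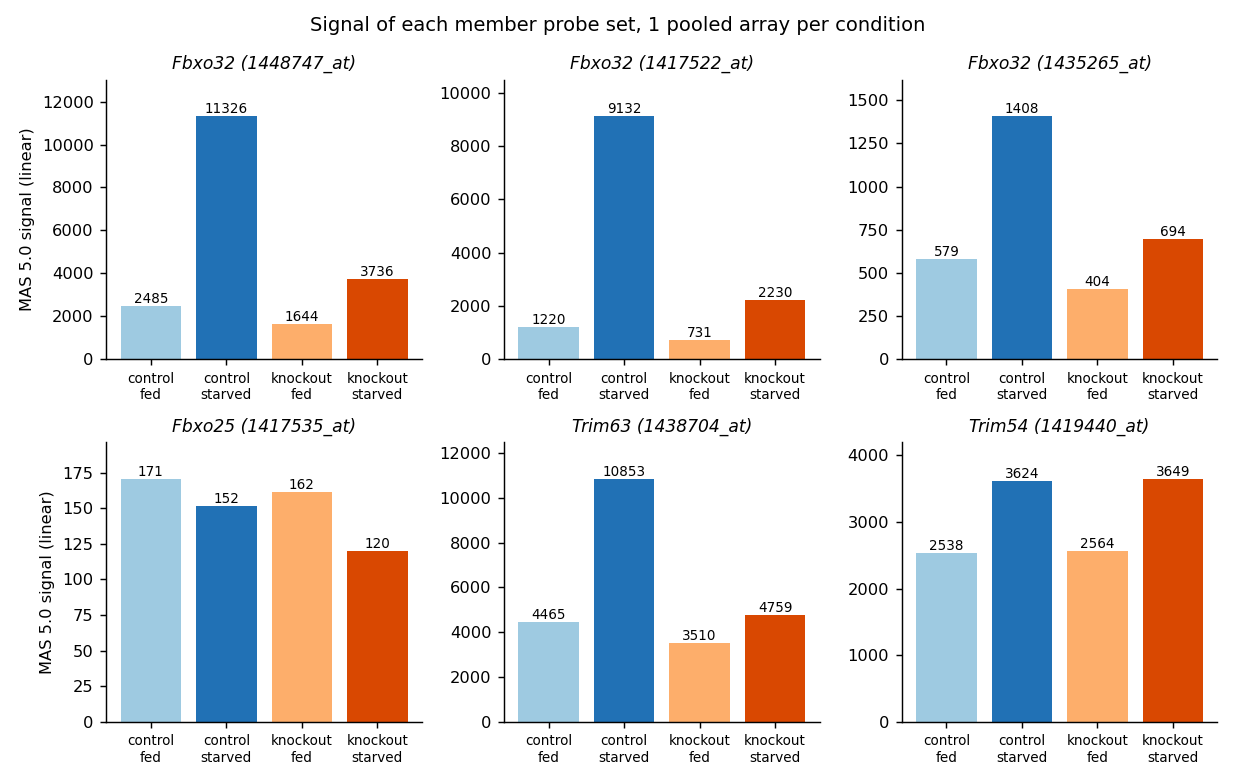
Each panel shows 1 probe set, with bars from 0 for its linear MAS 5.0 signal in each condition, 1 pooled array each and no error bar, and the Fbxo32 probe sets run from brightest to dimmest. In the 3 Fbxo32 panels and in Trim63 the starved control bar stands alone (11326.4 and 10852.6 for the brightest Fbxo32 probe set and Trim63), whereas Trim54 has paired fed and starved bars and the bars of Fbxo25 run from 120.1 to 170.7.

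For starvation in control muscle, 2 of the 4 measured members rose (Fbxo32 and Trim63) and none fell, against 9.23% of all genes that rose and 14.2% that fell. The median log2 ratio of the 4 members was 0.90, beside -0.11 over all genes. Only 94 genes (0.748%) had a higher ratio than Fbxo32 and 314 (2.50%) a higher one than Trim63. For Trim54, 1368 genes (10.9%) were higher. Fbxo32 and Trim63 were known as wasting genes when the set was drawn up, and the study followed them as such, so their direction is no independent evidence.

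In knockout muscle, 1 of 4 members rose on starvation (Fbxo32) and none fell, against 7.39% of all genes that rose and 9.45% that fell. The members' median log2 ratio was 0.47, and that of all genes -0.06. Above Fbxo32 were 316 genes (2.51%), and above Trim63 were 1345 (10.7%). Trim54 held about the same place as in control muscle, with 1117 genes (8.89%) above it, and thus stood higher than Trim63.

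The genotypes differed little in the fed state. Here 1 of 4 members was lower in knockout muscle (Fbxo32), against 11.3% of all genes lower and 3.38% higher. Fbxo32 was 1.51-fold lower (log2 -0.60), which is at the threshold, and its other probe sets were 1.67-fold and 1.43-fold lower. Once each array was brought to a common median, its log2 ratio was -0.45, and the call was lost. Trim63 was 1.27-fold lower (log2 -0.35). The members' median of -0.21 lay at that of all genes, -0.20.

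In the starved state 2 of 4 members were lower in knockout muscle (Fbxo32 and Trim63), against 14.6% of all genes lower and 6.39% higher. The Fbxo32 signal was 3.03-fold lower by its brightest probe set (log2 -1.60), 4.10-fold by the second brightest and 2.03-fold by the dimmest. Trim63 was 2.28-fold lower (log2 -1.19). Only 187 genes (1.49%) had a lower ratio than Fbxo32 and 369 (2.94%) a lower one than Trim63. The members' median was -0.76, beside -0.16 over all genes. With the arrays scaled to a common median, Fbxo32 was at log2 -1.42 and Trim63 at -1.01. Of all genes, 8.32% were then lower and 10.1% higher. Starvation and genotype ratios share arrays, so a low starved knockout signal enters both. Likewise the single starved control array, where Fbxo32 and Trim63 read highest, enters their rise in control muscle and this genotype ratio. It also enters the comparison of responses that follows.

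The response itself was compared as the starved over fed ratio in control divided by that in knockout muscle. This quotient was 2.01 for Fbxo32 and 1.79 for Trim63, so 2 of 4 members responded at least 1.5 times more in control, against 10.4% of all genes. It was 1.00 for Trim54 and 1.20 for Fbxo25. The other Fbxo32 probe sets gave 2.45 and 1.42, the last of which is below 1.5. This limit was set after the data were seen, and FoxO factors were already known to act on Fbxo32 and Trim63. The count of members past it is thus no independent evidence. In signal units, Fbxo32 gained 8841.0 in control and 2091.6 in knockout muscle, so the knockout gain was 23.7% of the control gain. Trim63 gained 6387.5 in control and 1249.0 in knockout muscle, or 19.6%. Trim54 gained 1086.4 and 1085.0, or 99.9%. With other scalings of the arrays these shares reached up to 27.6% for the brightest Fbxo32 probe set, 24.4% for Trim63 and 120.3% for Trim54. The second brightest Fbxo32 probe set gave 18.9% as deposited and the dimmest 35.0%, and with the other scalings they reached up to 21.9% and 41.5%. The share of Trim54 was above those of Fbxo32 and Trim63 under each scaling run.

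**Figure D2:**
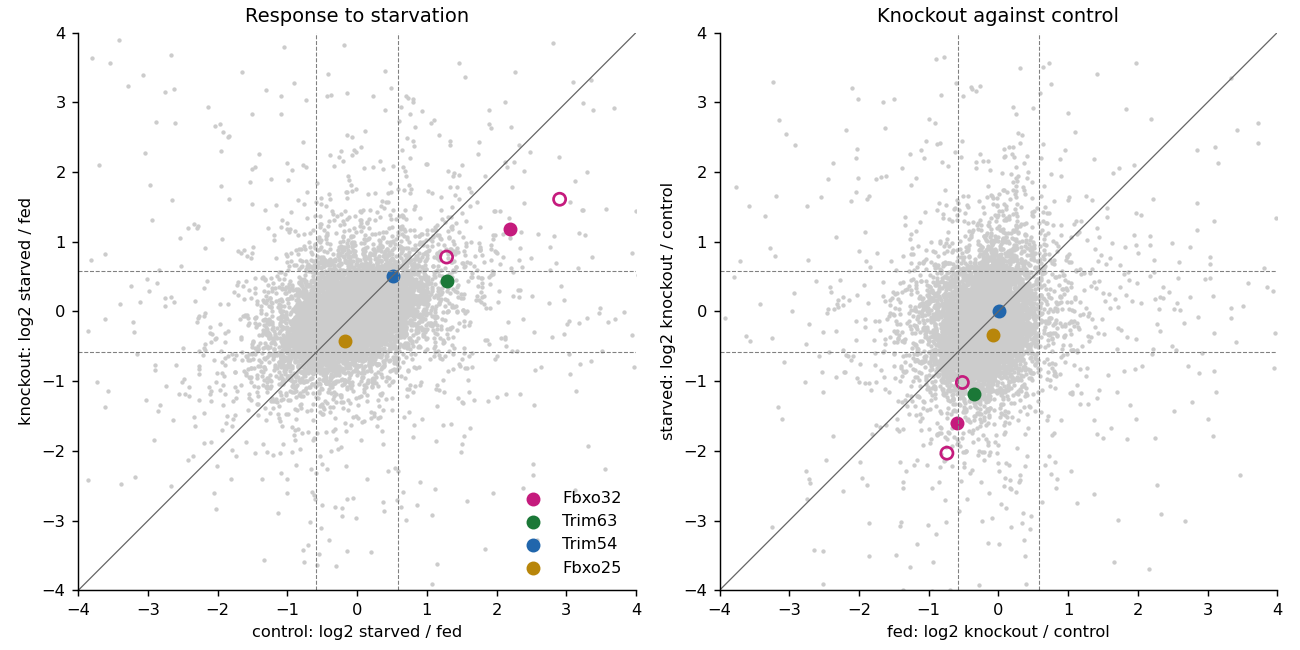
Grey points are 12565 genes by log2 ratio, with starved over fed in control against knockout muscle (left) and knockout over control in fed against starved muscle (right); filled circles are members, open circles the other Fbxo32 probe sets, dashed lines 1.5-fold and the diagonal equality, with 74 and 76 genes beyond the axes. Fbxo32 (2.19, 1.18) and Trim63 (1.28, 0.44) lie below the left diagonal, Trim54 (0.51, 0.51) lies on it, and on the right Fbxo32 (-0.60, -1.60) and Trim63 (-0.35, -1.19) lie below.

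No spread between samples exists, but different probe sets of 1 gene give an idea of technical scatter. Over 5703 genes with at least 2 probe sets past the filter, the log2 starvation ratios of the 2 brightest differed by a median of 0.236 in control muscle, and by 0.843 at the 90th percentile. For the difference in response between genotypes the median was 0.314 and the 90th percentile 1.18. Among 805 genes with both probe sets among the brightest 10% by mean signal, those values were 0.142 and 0.406. The response differences of Fbxo32 (log2 1.00) and Trim63 (log2 0.84) were larger than the last value, but both were below 1.18. Across its own probe sets the difference of Fbxo32 ran from 0.50 to 1.30. That of Fbxo25 (0.26) was below the median scatter of all probe set pairs. This scatter holds no difference between pools of mice.

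The signals of Fbxo32 and Trim63 in starved control muscle were at the 99.9th and 99.8th percentile of their array. Whether signals that high stay proportional to the RNA was not tested.

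Among F-box only genes, 28 were measured and Fbxo32 had the highest starved over fed ratio in control muscle. Next was Fbxo30 (MUSA1), another F-box ligase known from muscle atrophy, which read 150.6 fed and 431.6 starved in control muscle and 116.9 fed and 118.2 starved in knockout muscle. It thus rose in control muscle (log2 1.52) with a knockout ratio of log2 0.02, whereas Fbxo32 rose in both. Fbxo24 was the next by size (log2 1.39), but its signals of 4.4, 11.5, 6.1 and 24.2 were at or below the array medians on 3 of the 4 arrays. In control muscle 6 F-box genes rose (21.4%) and 1 fell (3.57%), against 9.23% and 14.2% of all genes. In knockout muscle 5 rose (17.9%) and 1 fell (3.57%), against 7.39% and 9.45% of all genes. Beyond those already named, Fbxo16, Fbxo44 and Fbxo31 rose and Fbxo34 fell in control, while Fbxo24, Fbxo44, Fbxo5 and Fbxo10 rose and Fbxo16 fell in knockout muscle, names that were picked after their values were seen. Fbxo5, which read 3.7 to 34, and Fbxo16, which read 11.1 to 27.1, were likewise near or below the array medians. In knockout muscle Fbxo44 rose from 12.4 to 28.7 and Fbxo10 from 28.1 to 51.6, also from signals near or below the medians. Fbxo25 was the 18th of the 28 by control ratio. The family median was -0.04 in both genotypes, close to that of all genes.

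The TRIM family had 37 measured genes, with Trim63 the first and Trim54 the third by control ratio. Between them stood Trim39, a ligase linked to cell death control, which read 81.0 fed and 122.5 starved in control and 83.8 fed and 69.6 starved in knockout muscle. Trim63 and Trim39 were the only 2 of the family that rose in control muscle, while 7 fell, or 5.41% and 18.9% against 9.23% and 14.2% of all genes. In knockout muscle 4 rose and 4 fell (10.8% each, against 7.39% and 9.45%), where those that fell were Trim7, Trim12c, Trim21 and Trim34a. The 4 that rose (Trim12a, Trim30d, Trim36 and Trim60, all 8 named after their values were seen) read at most 38.5 on any array. Trim7 had the largest fall in control muscle (log2 -2.34), and the brightest gene that fell there was Trim35, from 2368.2 to 939.8. Trim13 fell from 281.9 to 168.5. The others that fell, Trim29, Trim34a, Trim36 and Trim60, read 7.4 to 18.8 in starved control muscle, below the array median of 26. All of these were also named after the fact. The family median was -0.09 in control and -0.04 in knockout muscle.

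**Figure D3:**
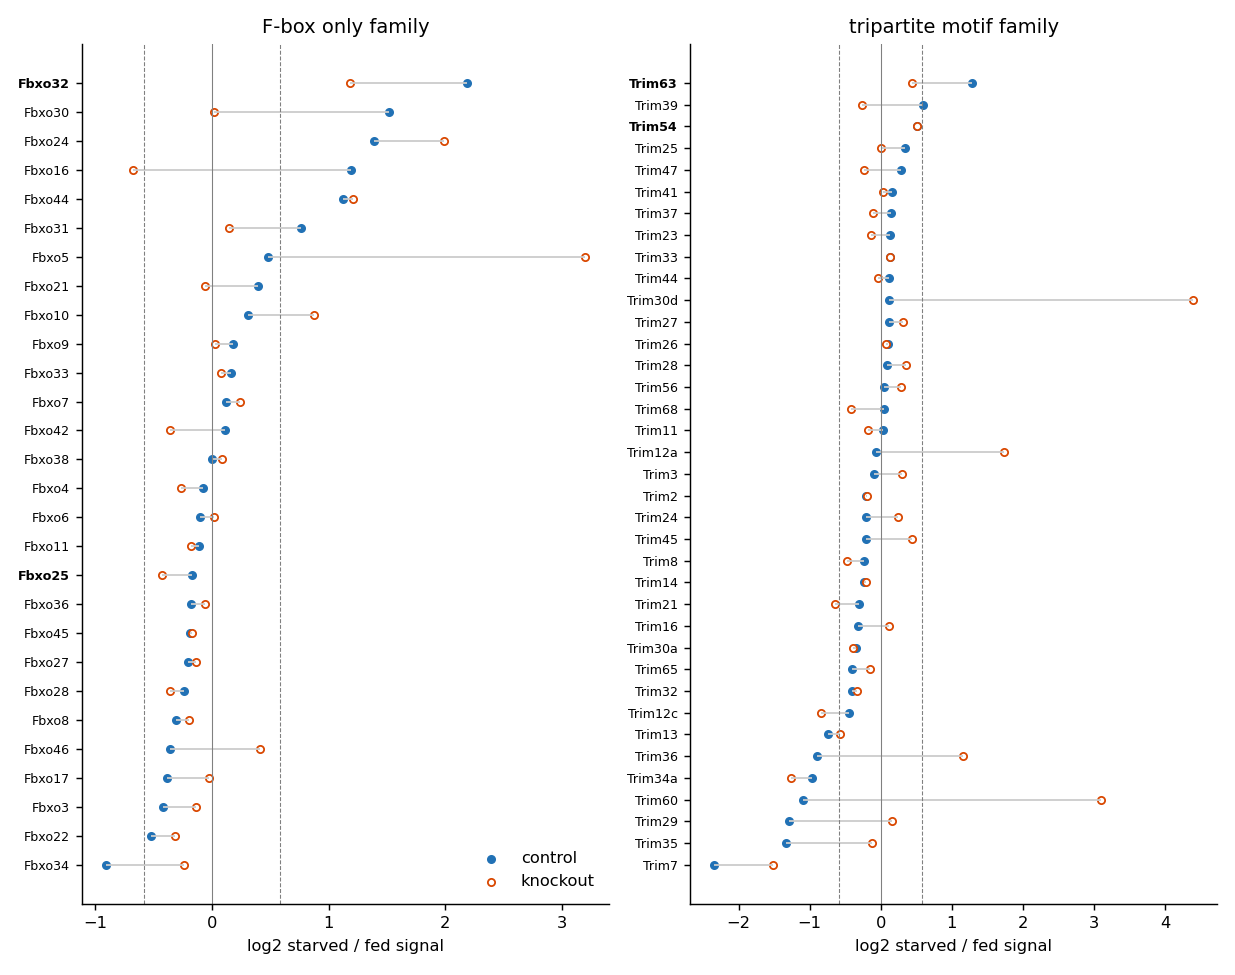
Rows are the 28 F-box only genes (left) and the 37 TRIM genes (right), ordered by the log2 starved over fed ratio in control muscle (filled), with the knockout ratio (open) joined by a line; dashed lines mark 1.5-fold and members are in bold. Fbxo32 (2.19) and Trim63 (1.28) head their families, Fbxo25 (-0.17) lies in the middle and both symbols of Trim54 (0.51) coincide.

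Few partners and substrates of these ligases passed the threshold. Across 5 lists, 42 of 45 genes were measured, and in control muscle 1 rose (2.38%) and 2 fell (4.76%), against 9.23% and 14.2% of all genes. In starved knockout against starved control muscle 5 were lower (11.9%) and 2 higher (4.76%), against 14.6% and 6.39% of all genes. Those lower were Rbx1, Ube2d1, Irs1, Sqstm1 and Nbr1, and those higher Ube2e1 and Myod1. The shares over all genes include dim genes. Among 7580 genes past a filter at the 75th percentile, 6.78% rose and 11.0% fell in control muscle. In starved knockout against starved control muscle, 11.0% of those 7580 were lower and 3.61% higher. For the SCF core and its activation by Nedd8, 9 of 10 genes were measured, with none that rose and 1 that fell in each genotype, and a median log2 ratio of -0.00 in control against -0.02 in knockout muscle. The scaffold Cul1 read 669.6 fed and 887.2 starved in control muscle, and 549.2 fed and 606.3 starved in knockout muscle, without a call. Dcun1d1, a factor that promotes cullin neddylation, fell in control muscle (log2 -0.90, from 286.4 to 153.2). Rbx1, named after its value was seen, fell in knockout muscle from 36.5 to 11.7, and the latter is below the array median. Nedd8 itself had a log2 ratio of -0.38 in control and -0.08 in knockout muscle.

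Of the E2 enzymes, which hand ubiquitin to the ligases, 9 of 10 were measured and none passed 1.5-fold on starvation in either genotype. Ube2e1 read 3474.4 fed and 2338.6 starved in control muscle, and 3578.6 fed and 3610.0 starved in knockout muscle. The starved control array was the low one here, opposite to Fbxo32 and Trim63, and starved knockout was higher than starved control (log2 0.63). Ube2n had a log2 starvation ratio of -0.50 in control muscle, and Ube2g1 one of 0.48. Ube2d1, named after its value was seen, was lower in starved knockout than in starved control muscle (log2 -0.84).

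Transcripts of sarcomere and energy proteins that MuRF1 is known to bind or ubiquitinate stayed below the threshold throughout, with 12 of 12 measured and none called in any of the 4 ratios. Their starved over fed ratios ran from 0.857 to 1.10 in control and from 0.866 to 1.04 in knockout muscle. The lowest in control were the myosin heavy chain Myh2 (log2 -0.22), the myosin binding protein Mybpc1 (-0.21) and Myh1 (-0.17). Some of these probe sets were near the top of the arrays, as Mylpf at 16949.8 on the fed knockout array, whose highest signal was 17239.6. Protein levels were not measured on these arrays.

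Known substrates of atrogin1 and Fbxo40 gave 6 of 6 measured genes. Myod1, the myogenic factor that atrogin1 is known to target, fell in control muscle from 241.6 to 100.1 (log2 -1.27) and read 259.6 fed and 209.4 starved in knockout muscle (log2 -0.31). It was the only list member that fell in control muscle. Irs1, the insulin receptor substrate that Fbxo40 is known to target, read 1323.4 fed and 1492.1 starved in control muscle. In knockout muscle it fell from 834.4 to 490.4 (log2 -0.77), and starved knockout was lower than starved control (log2 -1.61). Ppp3ca, a calcineurin subunit, had log2 ratios of -0.23 in control and -0.24 in knockout muscle.

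Of the partners of MuRF proteins at titin, 6 of 7 were measured. The autophagy receptor Sqstm1 (p62) rose in control muscle from 2022.5 to 3370.8 (log2 0.74), and read 1391.4 fed and 1823.9 starved in knockout muscle (log2 0.39). Its partner Nbr1 read 1248.8 fed and 1788.2 starved in control muscle (log2 0.52), and 1120.2 and 1129.2 in knockout muscle (log2 0.01). Both had their highest signal on the starved control array, like Fbxo32 and Trim63. Both were also lower in starved knockout than in starved control muscle, at log2 -0.89 for Sqstm1 and -0.66 for Nbr1. Srf, the transcription factor downstream of titin kinase signalling, had a log2 ratio of -0.29 in control muscle.

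**Figure D4:**
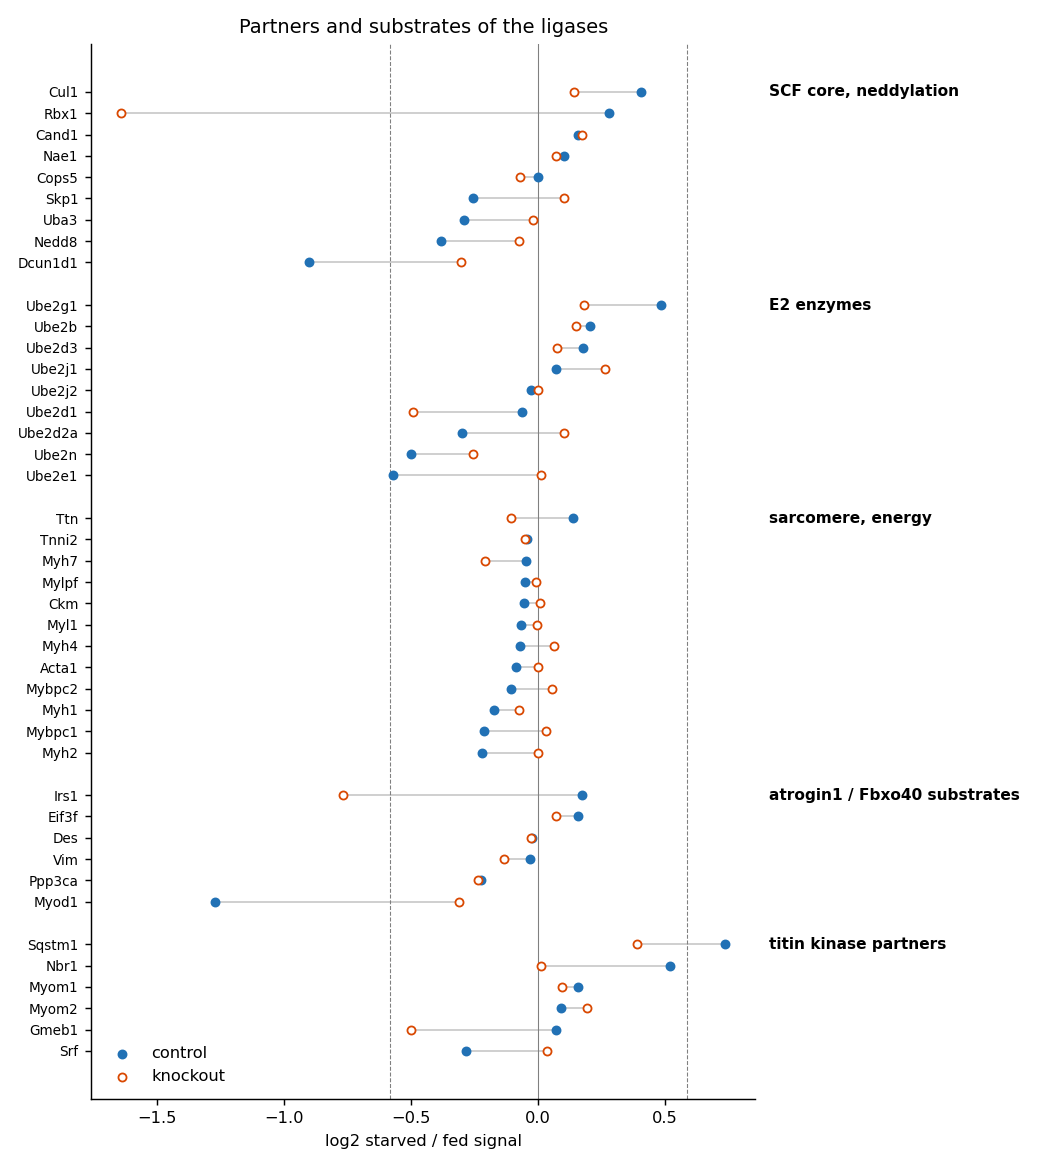
Rows are the 42 measured genes of 5 lists, with the log2 starved over fed ratio in control (filled) and knockout (open) muscle and dashed lines at 1.5-fold. Only Sqstm1 (0.74) passes the right line in control muscle, and only Dcun1d1 (-0.90) and Myod1 (-1.27) pass the left one.

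The genes with the pattern most like each called member were sought among 7425 genes, by the Euclidean distance of log2 signals over the 4 arrays after centring each gene. Nearest to Fbxo32 were Acss1, a mitochondrial acetyl-CoA synthetase (distance 0.195), the receptor Eda2r (0.290), the transcription repressor Tgif1 (0.292), the interleukin receptor Il6ra (0.298) and the translation inhibitor Eif4ebp1 (0.324). Acss1 read 217 fed and 994.8 starved in control, and 169.6 fed and 352.5 starved in knockout muscle. Eif4ebp1 read 1316.3 fed and 5621.3 starved in control, and 874.3 fed and 1507.3 starved in knockout muscle. All 5 had the starved control array highest and the fed knockout array lowest, as Fbxo32 did. They were chosen for closeness over these same arrays, so the shared order follows from that choice and is no separate finding.

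Nearest to Trim63 were Ube4a, a ubiquitin chain elongation factor (distance 0.084), Arhgap26 (0.114), Tbc1d15 (0.130), the transporter Slc15a4 (0.163) and the transcription factor subunit Taf7 (0.163). Ube4a read 124.1 fed and 305.7 starved in control, and 92.9 fed and 125.5 starved in knockout muscle. Tbc1d15 read 1179.5 fed and 2978.8 starved in control, and 983.5 fed and 1184.3 starved in knockout muscle. In these nearest genes, chosen for this likeness, the starved knockout signal was close to the fed control signal, as for Trim63, except in Taf7. Taf7 read 161.7 in fed control and 195.2 in starved knockout muscle. Trim63 itself was the 53rd nearest gene to Fbxo32, at a distance of 0.893, and Fbxo32 the 1043rd to Trim63. This distance also depends on the size of the changes, and the Pearson correlation between Fbxo32 and Trim63 was 0.984. With the Pearson correlation over the 4 arrays in place of the distance, 0 of the 5 genes were shared for either member. By that measure 132 genes had a correlation at least as high as the lowest of the 5 for Fbxo32, and 98 for Trim63.

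**Figure D5:**
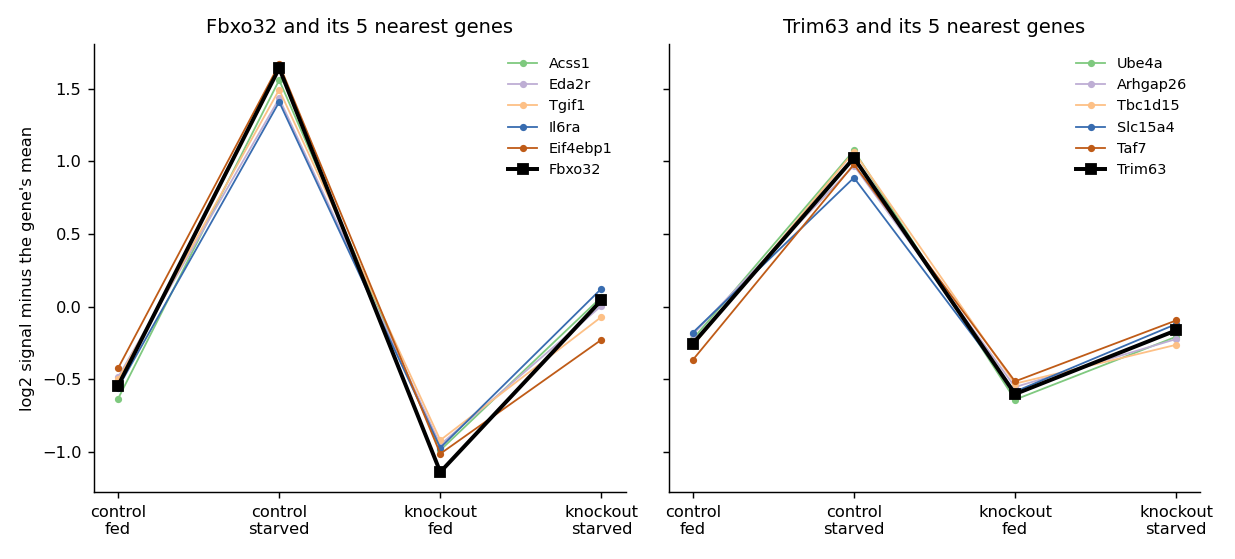
Lines give the log2 signal of each gene minus its mean over the 4 arrays, for Fbxo32 (left, black) and Trim63 (right, black) with their 5 nearest genes in colour. Every line peaks on the starved control array and is lowest on the fed knockout array, and the span of Fbxo32 (6.89-fold from lowest to highest array) is wider than that of Trim63 (3.09-fold). The coloured genes were chosen by distance over these same arrays, so their shared shape follows from that choice.

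Markers of other cell types were read on the same arrays. Endothelial markers (4 of 4 measured) summed to between 1485.7 and 1875.9, and macrophage markers (4 of 4) to between 1592.7 and 2332.8. Both sums were lowest on the starved knockout array, but a sum mostly follows its brightest probe sets, such as Csf1r among macrophage markers. Kdr, Tek, Adgre1 and Csf1r were lowest there, whereas Pecam1, Cdh5, Cd68 and Cd14 were lowest on the fed knockout array. Cd68 was highest on the starved knockout array, at 147.3. Fibroblast markers (4 of 4) summed to between 15801.3 and 21366.8, with Col1a1 and Col3a1 lower on both starved arrays. Fat markers (3 of 4) summed to 4644.0 and 5501.1 on the fed and starved control arrays and to 3754.6 and 3246.3 on the fed and starved knockout arrays. Their highest sum was on the starved control array, where most of it was Adipoq (4518.2). Cidec was also highest there (747.9), whereas Lep was highest on the fed control array (278.8, against 235.0 in starved control). Skin and hair markers (6 of 6) summed to 809.2 and 593.4 in control and 856.5 and 1449.8 in knockout muscle. These 6 genes did not move together, and in control muscle 3 rose and 3 fell on starvation. Krt25 read 252.9, 6.9, 18.2 and 318.5 on the fed and starved control and then the fed and starved knockout arrays, and S100a3 and Krtap15 were high on the same pair. Lor read 12.5, 177.5, 132.8 and 131.5 in that order, and like Krt10 and Krt14 was lowest on the fed control array. Slow fibre markers (7 of 7) summed to between 26663 and 32444.4 without a call. The part of these markers in the members' values was not tested.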

How the data were processed

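Gene expression was measured on 4 Affymetrix mouse genome arrays, each hybridised with pooled RNA. The authors deposited linear signal intensities made with MAS5, and Affymetrix Expression Console is listed beside it in the submitters' processing notes. Neither a scaling target nor detection calls were found there or in the methods. Trimmed means, without the outer 2% at either end, ran from 137.7 to 163.0 over the arrays.

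Ratios of the deposited signals were computed in Python (3.11.15) with pandas (2.3.3) and numpy (2.4.6), and plots were made in matplotlib (3.10.9). A signal of 0 was set to 0.1. Of 45037 probe sets without controls, 34945 have 1 gene in the platform annotation, 932 have several and were not used, and 9160 are not listed. For 34741 probe sets the gene identifier was found in the RefSeq gene table of GRCm38.p6, and the symbol was taken from there, whether or not it differed. Probe sets under the 50th percentile on all 4 arrays were dropped, and the one with the highest mean signal stood for its gene. Changes were called at 1.5-fold, the threshold named in the methods. Calls were also tested on simulated data with known changes.

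The members, lists, markers and families were chosen with earlier results of these data known, and the skin and hair markers were taken from those results. Named were all members and FoxO genes, the 3 genes with the largest absolute control change in each partner list, the 3 largest rises in each family, and the 5 genes nearest in pattern to each called member, with candidates limited to probe sets at or above the 75th percentile somewhere and to symbols that are not clone names. The 1.5-fold limit on the quotient of responses and the promoter motifs were set after the data were seen. Promoter sequences of RefSeq were read for Trim63, Trim54 and Fbxo40, and those of Fbxo40 are not shown. Alternatives were array scaling, an offset of 50, the probe set or filter used and a 2-fold threshold, and each other Fbxo32 probe set in turn was added after the data were seen.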

Additional observations from a re-analysis of the deposited data

How the results depend on the processing

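The counts of members that changed were 2 on starvation in control, 1 on starvation in knockout and 2 in starved knockout against starved control muscle under every alternative run for them. The fed comparison did not hold. The count of 1 fell to 0 with arrays scaled to the same median, to the same trimmed mean or by quantiles, with an offset of 50, with a 2-fold threshold, and with the dimmest probe set for Fbxo32. The log2 ratio of Fbxo32 was then -0.45, -0.40, -0.42, -0.58, -0.60 and -0.52. That probe set, added after the data were seen, also left 1 member in place of 2 with a smaller response in knockout muscle (log2 difference 0.50 for Fbxo32). The median scatter of 0.236 between probe sets moved to 0.373 without a filter and to 0.151 with a filter at the 75th percentile, since the filter decides how many dim pairs enter. The Fbxo32 rise in control muscle ran from log2 1.28 to 2.90 and that of Trim63 from 1.27 to 1.35. Trim54 ran from 0.51 to 0.58 and never passed 1.5-fold. The uncalled fed ratio of Fbxo25 between genotypes ran from -0.08 to 0.14 and that of its starvation response in control from -0.17 to -0.08. No called ratio of a member changed sign. One array per condition leaves the spread between mice unmeasured, and dim probe sets, near the array medians, have the least precise ratios.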
